A study of Rattus norvegicus with 6 samples.

Results

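Transcription factors that set the identity and the fuel metabolism of the proximal tubule were examined in the renal cortex of 6 rats. The set holds 7 genes, Hnf4a, Hnf4g, Pax8, Ppara, Nr1h4, Ppargc1a and Esrra, and its rule goes by gene symbol and uses no measured value, although the genes were picked with earlier results of these data known. Every non-control probe whose accession belongs to one of these genes in the RefSeq gene table was taken. This gave 12 probes of 6 genes, out of 61537 non-control probes and 15645 named genes on the array. No probe was matched to Hnf4g, which is therefore not analysed here.

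Treated animals were male Sprague-Dawley (Crl:CD(SD)) rats given 4-hydroxy-m-phenylenediammonium dichloride, a salt of an aromatic diamine, at 100 mg/kg/day for 4 weeks. Control animals were males of the same strain given corn oil for the same time, and the sources used here do not name the compound's vehicle. All rats were 5 weeks old at purchase, and each group held 3 animals with 1 Cy3 array each. The comparison asked which cortical transcripts differ after dosing.

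The proximal tubule reabsorbs most of what the glomerulus filters and runs mainly on the oxidation of fatty acids. HNF4A is a nuclear receptor that, in mouse kidney, is needed for proximal tubule cells to mature, and PAX8 is a paired-box factor that acts with PAX2 to set up the nephron lineage. PPARA, bound by fatty acids, switches on genes of fatty acid oxidation, NR1H4, also called FXR, senses bile acids, and the coactivator PGC1A, encoded by Ppargc1a, works with the orphan receptor ERRA, encoded by Esrra, on mitochondrial genes.

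A level is the log2 signal minus its array's 75th percentile, so 0 lies at that percentile and each unit is a doubling. Levels of different probes depend on the probe and are not set against each other. All 12 probes were well above background on all 6 arrays. Slide 2 carried the treated arrays and slide 1 the controls, with a scan for each, and slide cannot therefore be told apart from treatment. Of the proximal tubule markers, 10 of 10 were well above background on every array. Their summed log2 level was 11.01 to 11.05 in treated and 11.05 to 11.16 in control cortex. The mean was lower in treated cortex for 9 of the 10, against 56.5% of all genes. Of the 10, 1 was called lower, where 1.33% of all genes were. It was the water channel Aqp1 (log2 fold change -0.58, limma adjusted p = 0.034). Without control replicate 3 the Aqp1 difference was -0.64 (limma adjusted p = 0.073), in a fit in which no gene of the 12130 was called. In bulk cortex, fewer cells of a type and less RNA per cell cannot be told apart.

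Control replicate 3 stood apart through transcripts of liver. Alb, which encodes the plasma protein albumin, had log2 levels of -0.58, -1.11 and -0.03 in treated cortex, against -1.05, -1.49 and 3.89 in control cortex, on its brightest probe. On control replicate 3 this was 15.1-fold above the next highest array, and Serpina1, the antitrypsin gene, was 13.6-fold above it. The liver markers had a summed log2 level of 0.65 to 0.81 on the treated arrays and of 0.96, 0.04 and 4.20 on control replicates 1, 2 and 3, over the 4 of 6 listed genes that were tested. Tat and Cyp7a1, a pair of hepatocyte enzyme genes, were not well above background on any array. Hnf4a, Nr1h4 and Ppara are also active in liver, so every member is given with and without this array, and the part of the liver transcripts in the results was not tested. Markers of red blood cells had a summed log2 level of 9.93 to 10.71 in treated and 9.27 to 9.68 in control cortex. The groups did not overlap for 7 of the 7 tested, all with the higher mean in treated cortex, against 14.1% of all genes in that direction. Of the 7, 1 was called higher by limma, where 3.03% of all genes were, and 0 without control replicate 3. It was the erythroid factor gene Gata1, which was well above background on 0 control arrays and entered the test through the treated arrays alone. The part of these markers in the results was not tested either.

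None of the 6 member genes passed the test. Over all genes, limma called 529 of 12130 at an adjusted p under 0.05, which is 4.36%, with 368 higher (3.03%) and 161 lower (1.33%) in treated cortex (453 and 495 with a normexp background). Leaving out any 1 array cut the 529 calls to between 0 and 54, and the 6 calls in the gene lists described further on to 0 or 1. The count of 0 of 6 members does not set them apart from a background of that size. At an unadjusted p under 0.05 the count was also 0 of 6, and the smallest adjusted p was 0.290, for Hnf4a. The groups did not overlap for 0 of the 6 member genes, against 32.8% of all genes tested. Among the 12 probes, 0 were called, where the fit over all kept probes called 6.72% of 40986, and 1 showed no overlap between the groups, against 33.3% of all kept probes. The 95% intervals differed widely in width between members, so the sizes of change that the data allow are given for each below.

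**Figure D1:**
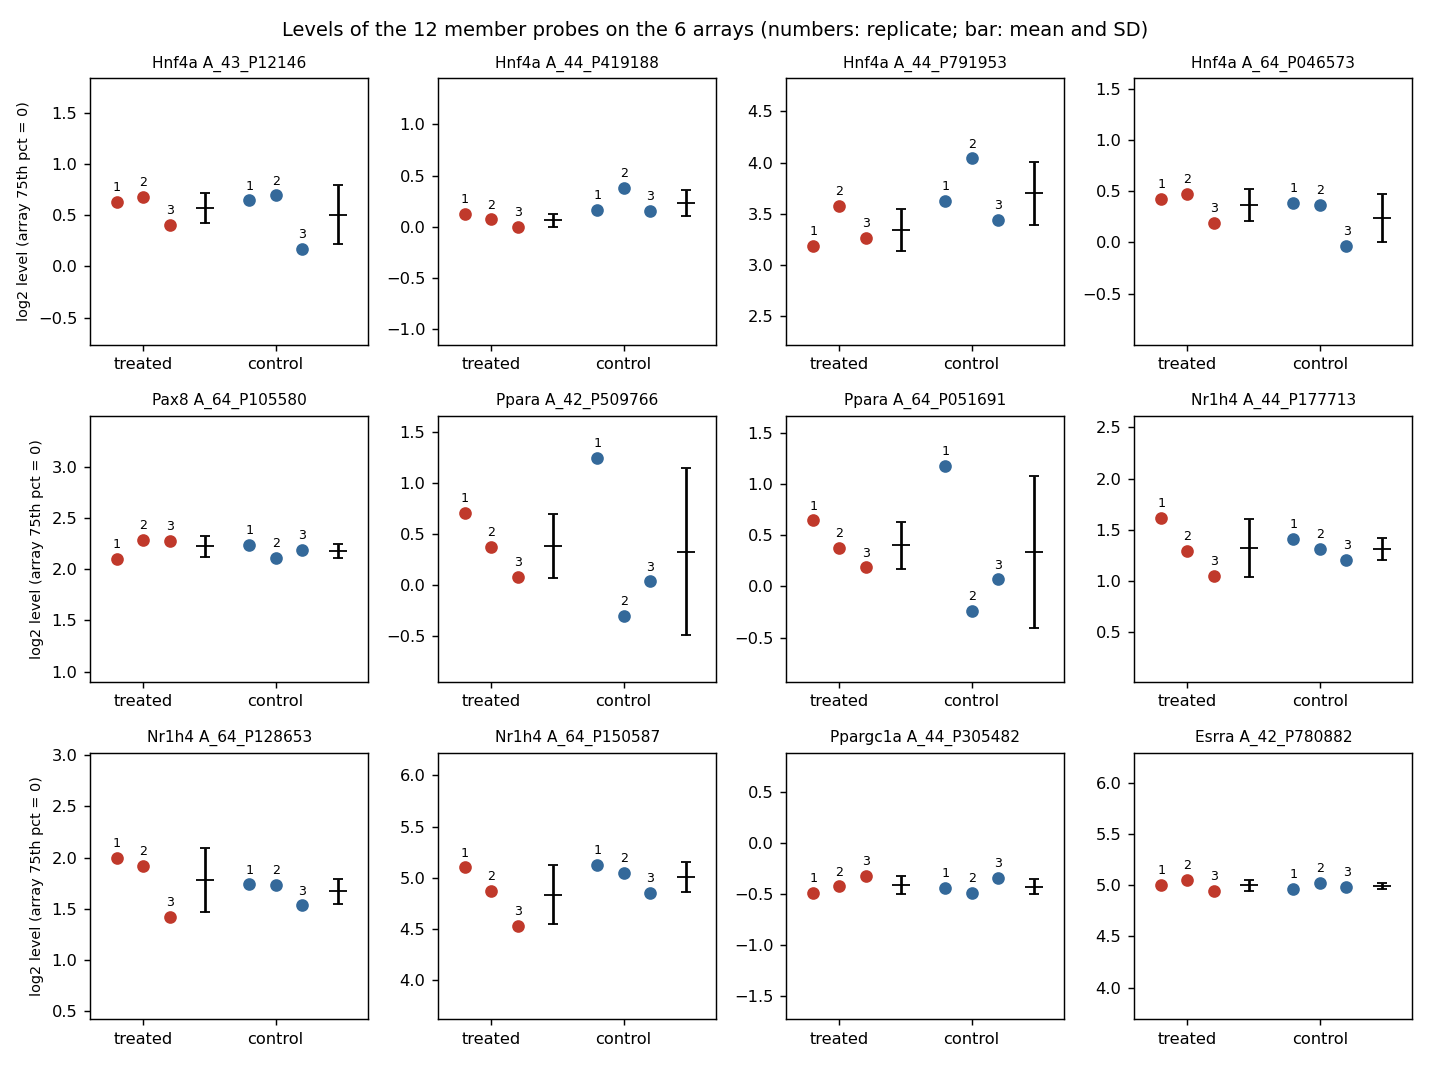
Log2 level of each of the 12 probes (y axis, 0 at the 75th percentile of the array; every panel spans the same range) in the 3 treated (red) and 3 control (blue) animals, with replicate numbers, the mean and the SD. The groups overlap in 11 of the 12 panels, Esrra lies between 4.95 and 5.05, and the Ppara controls spread from -0.24 to 1.17 on the probe A_64_P051691.

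Hnf4a is transcribed from a pair of alternative promoters in human and mouse, which give receptors with different amino ends. The RefSeq promoter table of rat assembly GRCr8 holds 2 windows for Hnf4a on the plus strand of chromosome 3, 35616 bases apart, each from 250 bases before to 50 bases after an annotated start. They are printed because the 4 Hnf4a probes below did not move together and none of them is assigned to a start here.
Hnf4a chr3:172605970-172606269: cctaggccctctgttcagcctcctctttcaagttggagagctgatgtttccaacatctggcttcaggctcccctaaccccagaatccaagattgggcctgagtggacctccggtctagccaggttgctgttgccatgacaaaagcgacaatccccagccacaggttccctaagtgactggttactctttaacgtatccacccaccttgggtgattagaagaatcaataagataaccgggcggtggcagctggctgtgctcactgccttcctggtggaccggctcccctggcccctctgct
Hnf4a chr3:172641586-172641885: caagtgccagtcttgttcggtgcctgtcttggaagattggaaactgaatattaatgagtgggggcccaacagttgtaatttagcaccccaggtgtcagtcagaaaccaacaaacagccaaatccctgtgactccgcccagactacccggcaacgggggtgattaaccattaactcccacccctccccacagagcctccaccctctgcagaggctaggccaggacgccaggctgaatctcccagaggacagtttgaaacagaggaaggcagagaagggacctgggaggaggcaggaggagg
None of the motifs searched in the members' promoters, which are given with Ppara and Ppargc1a, was found in either window.

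The brightest Hnf4a probe, A_44_P791953, had log2 levels of 3.18, 3.58 and 3.26 in treated cortex, against 3.62, 4.04 and 3.44 in control cortex. Treated replicate 2 lay above control replicate 3, so the groups overlapped, while the other treated animals were below all controls. The mean was 3.34 ± 0.21 in treated and 3.70 ± 0.31 in control cortex (SD, n = 3 each), a log2 fold change of -0.36 with an SE of 0.18 (limma adjusted p = 0.290). Its 95% interval ran from -0.81 to 0.10, which allows anything between 0.569-fold and 1.07-fold of the control level. Without control replicate 3 the difference was -0.49 with an interval of -0.96 to -0.02, and the adjusted p was 0.233. With the mean of the kept Hnf4a probes in place of this probe it was -0.084 (adjusted p = 0.736).

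The other Hnf4a probes gave smaller differences of both signs. Probe A_44_P419188 had 0.12, 0.07 and -0.00 in treated cortex, against 0.16, 0.38 and 0.16 in control cortex, and was the 1 probe of the 12 whose groups did not overlap. Its log2 fold change was -0.17 (95% interval -0.38 to 0.04, limma adjusted p = 0.285). Probe A_43_P12146 had 0.63, 0.68 and 0.41 in treated cortex, against 0.65, 0.69 and 0.17 in control cortex. The pattern of that probe returned on A_64_P046573, which had 0.43, 0.47 and 0.19 in treated cortex, against 0.39, 0.36 and -0.04 in control cortex. On both, control replicate 3 was the lowest array of all and treated replicate 3 the next lowest. Their log2 fold changes were 0.07 and 0.12 over all arrays, and -0.10 and -0.01 without control replicate 3.

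Because probes of a gene share the array, a constant shift of that array on the log2 scale cancels in their difference. Effects that depend on intensity, such as background correction, do not cancel. For A_44_P791953 minus A_64_P046573, treated minus control was -0.48, and -0.59 with a normexp background. The brightest Hnf4a probe exceeded A_43_P12146 by 2.77 ± 0.19 in treated and 3.20 ± 0.19 in control cortex on the log2 scale (SD, n = 3 each), with no overlap between the groups (two-sided exact permutation p = 0.1). Against A_64_P046573 the gap was 2.98 ± 0.19 in treated and 3.46 ± 0.22 in control cortex, again without overlap (exact permutation p = 0.1). The value of 0.1 is the smallest that 3 against 3 animals can give, and adjusted over the 10 probe pairs of the members it is 0.25. Over all 10 pairs, 4 did not overlap (5 with a normexp background), that is 40.0%, against 35.4% of 12670 such pairs over all genes, a share near the background. In each of the 4 the gap, brighter minus dimmer probe, was smaller in treated cortex. That is 4 of the 10 pairs, against 20.3% of the 12670 pairs over all genes. Of the 4487 pairs over all genes without overlap, 2567 had the smaller gap in treated cortex. Each of the 4 holds the brightest probe of Hnf4a or of Nr1h4, so they are not separate observations. The within-array differences show unequal signal of the probes and do not tell which of them moved.

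**Figure D2:**
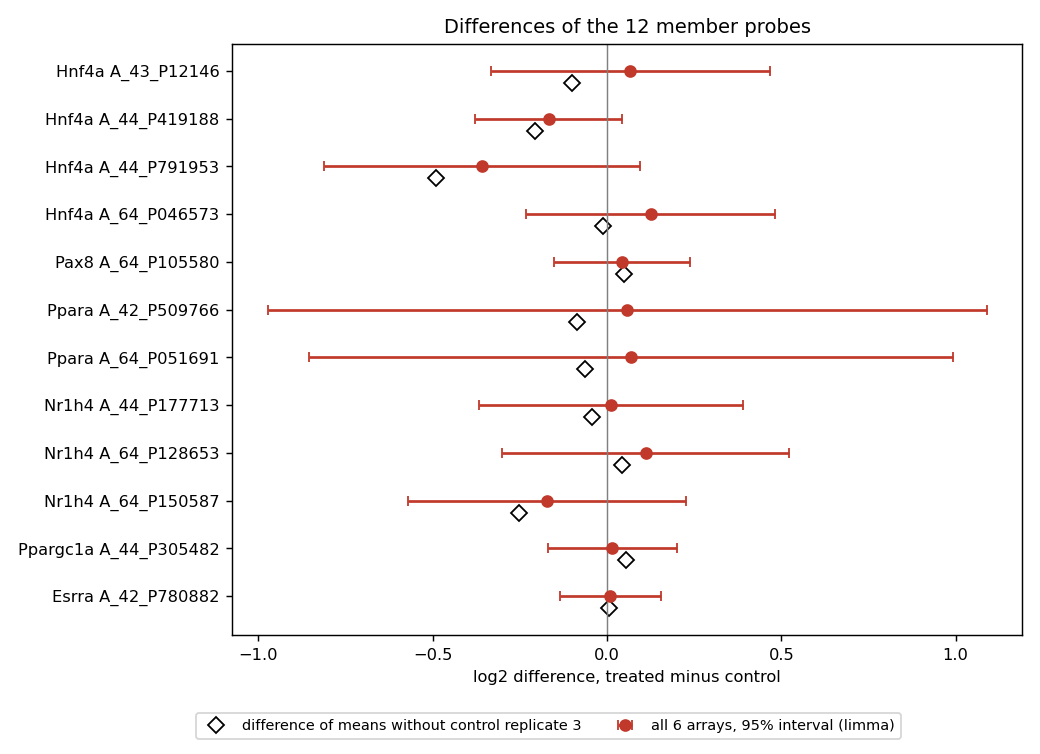
Log2 difference, treated minus control, of the 12 probes (x axis), with limma's 95% interval over all 6 arrays (red) and the difference of the group means without control replicate 3 (open diamonds). Every interval includes 0, and those of Ppara are the widest and that of Esrra the narrowest.

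Pax8 had log2 levels of 2.10, 2.29 and 2.28 in treated cortex, against 2.24, 2.11 and 2.19 in control cortex. The groups overlapped fully, and the lowest animal of all was treated replicate 1. The mean was 2.22 ± 0.11 in treated and 2.18 ± 0.07 in control cortex (SD, n = 3 each), with a log2 fold change of 0.04 (SE 0.08, 95% interval -0.15 to 0.23, limma adjusted p = 0.763). Without control replicate 3 it was 0.05.

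Its relative Pax2, which marks the collecting duct and the developing nephron, was tight among the treated animals, with log2 levels of -1.14, -1.13 and -1.14, against -1.54, -1.61 and -1.34 in control cortex. The groups did not overlap and the log2 fold change was 0.36 (SE 0.08), but it did not pass over all genes (limma adjusted p = 0.068). A further Pax2 probe gave 0.10.

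Ppara is shown with its promoter window because its level varied most among animals. The window is on the plus strand of chromosome 7 in GRCr8, from RefSeq, and capitals mark a match to the NRF1 site, searched on both strands.
Ppara chr7:118712357-118712656: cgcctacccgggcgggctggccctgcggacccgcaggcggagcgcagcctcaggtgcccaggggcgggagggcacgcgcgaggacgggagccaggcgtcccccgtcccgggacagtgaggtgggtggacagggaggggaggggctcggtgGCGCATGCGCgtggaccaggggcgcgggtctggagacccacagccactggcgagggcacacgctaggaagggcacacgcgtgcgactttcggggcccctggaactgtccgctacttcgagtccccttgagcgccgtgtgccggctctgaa
The match begins at -100 relative to the start, and 4.25% of all 33469 promoter windows of this table held such a match.

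Ppara had log2 levels of 0.64, 0.38 and 0.19 in treated cortex, against 1.17, -0.24 and 0.07 in control cortex, on the probe A_64_P051691. Control replicate 1 was the highest array of all and control replicate 2 the lowest, so the treated animals lay inside the control range. That range was 1.41 in control cortex and 0.46 in treated cortex on the log2 scale, which was read without a test of the spread. The control SD of 0.74 was larger than that of 97.3% of all genes tested.

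The mean of Ppara was 0.40 ± 0.23 in treated and 0.33 ± 0.74 in control cortex (SD, n = 3 each), a log2 fold change of 0.07 (SE 0.38, limma adjusted p = 0.933). The 95% interval, -0.86 to 1.00, allows from 0.55-fold to 2.0-fold of the control level, so the data leave both a loss and a gain of that size possible. The difference was 0.49 without control replicate 1, -0.22 without control replicate 2 and -0.06 without control replicate 3, so its sign depends on single control animals. The other Ppara probe, A_42_P509766, had 0.70, 0.37 and 0.08 in treated cortex, against 1.25, -0.30 and 0.04 in control cortex. The gap between the probes within an array departed from its mean by at most 0.09, so the spread between control animals was seen by both.

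Nr1h4 had log2 levels of 5.10, 4.87 and 4.53 in treated cortex, against 5.13, 5.05 and 4.85 in control cortex, on its brightest probe, A_64_P150587. The lowest array was treated replicate 3, and the other treated animals overlapped with the controls. The mean was 4.83 ± 0.29 in treated and 5.01 ± 0.14 in control cortex (SD, n = 3 each), a log2 fold change of -0.17 (SE 0.16, 95% interval -0.57 to 0.23, limma adjusted p = 0.547). It was -0.25 without control replicate 3 and -0.02 without treated replicate 3, and -0.017 when the kept Nr1h4 probes were averaged.

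Treated replicate 3 was also the lowest array on the other Nr1h4 probes. Probe A_64_P128653 had 2.00, 1.92 and 1.42 in treated cortex, against 1.74, 1.74 and 1.53 in control cortex. Probe A_44_P177713 had 1.62, 1.29 and 1.05 in treated cortex, against 1.41, 1.31 and 1.20 in control cortex. They differed by 0.11 (limma adjusted p = 0.721) and by 0.01 (adjusted p = 0.973). The brightest probe exceeded A_64_P128653 by 3.06 in treated and 3.34 in control cortex, and A_44_P177713 by 3.51 in treated and 3.70 in control cortex, without overlap in either case (exact permutation p = 0.1 each, 0.25 after adjustment over the 10 pairs).

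Ppargc1a is shown with its promoter window because, in mouse and human, a cAMP response element near its start is the textbook route by which CREB switches the gene on. The window lies on the plus strand of chromosome 14 in GRCr8, from RefSeq, and capitals mark a match to TGACGTCA, which reads the same on both strands.
Ppargc1a chr14:63634058-63634357: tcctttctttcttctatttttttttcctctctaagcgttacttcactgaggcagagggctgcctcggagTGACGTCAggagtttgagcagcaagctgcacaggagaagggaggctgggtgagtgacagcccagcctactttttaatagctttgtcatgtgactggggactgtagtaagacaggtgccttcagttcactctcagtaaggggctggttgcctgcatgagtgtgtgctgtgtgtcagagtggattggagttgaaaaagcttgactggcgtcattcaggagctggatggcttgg
The match begins at -181 relative to the start, and 1.83% of all promoter windows held such a match. The ERR response element TCAAGGTCA (0.433% of all windows), the nuclear receptor motif AGGTCA (16.2%, whose letters are also part of the other receptor motifs) and its direct repeat with 1 base between the copies (0.0538%) were searched on both strands and found in 0 of the 6 windows of the 5 members that the table holds, which says only that these letters are not in those windows.

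Ppargc1a had log2 levels of -0.49, -0.43 and -0.32 in treated cortex, against -0.45, -0.49 and -0.35 in control cortex. The groups overlapped, and the highest array in each was replicate 3. The log2 fold change was 0.01 (SE 0.07, 95% interval -0.16 to 0.19, limma adjusted p = 0.923), and it was 0.06 without control replicate 3. Its relative Ppargc1b, which coactivates the same receptors, had a log2 fold change of -0.08 (adjusted p = 0.890).

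Esrra varied least of the members, with log2 levels of 4.999, 5.048 and 4.946 in treated cortex, against 4.964, 5.020 and 4.984 in control cortex. The groups overlapped, and the control SD of 0.03 was larger than that of only 8.01% of all genes tested. The mean was 4.998 ± 0.051 in treated and 4.989 ± 0.029 in control cortex (SD, n = 3 each), a log2 fold change of 0.01 (SE 0.05, limma adjusted p = 0.941). The 95% interval of -0.13 to 0.14 allows from 0.916-fold to 1.105-fold of the control level, the narrowest bound among the members. Without control replicate 3 the difference was 0.01.

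Likeness to each member was measured as the root mean square difference of log2 levels, each centred on its mean over the 6 arrays, among tested genes with an informative symbol. The nearest to Ppara were Pwwp3b (0.138) and Arsg (0.177), where the median gene was 0.471 away. The nearest to Hnf4a were Stard6 (0.076) and Ntn1 (0.091), against a median of 0.301, and those to Nr1h4 were C1qtnf6 (0.037) and Col6a2 (0.039), against 0.243. The nearest to Pax8 were Npdc1 (0.019) and Atp5pb (0.026), against 0.159. Lsm1 (0.017) and Slc35g1 (0.019) were nearest to Ppargc1a, against 0.155, and Larp4b (0.014) and Rbm5 (0.016) to Esrra, against 0.144. These are descriptions over 6 arrays of 2 groups.

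The partners and coregulators of these receptors gave 0 calls among 15 genes tested, of 21 listed, with a median log2 fold change of -0.08 against -0.03 for all genes tested. In limma's fit 1 of the 15 had an unadjusted p under 0.05 and was lower, where 11.8% of all genes were higher and 13.2% lower at that level. It was Nrip1, a corepressor of nuclear receptors, with log2 levels of 0.16, 0.32 and 0.44 in treated cortex, against 0.62, 0.63 and 0.78 in control cortex (log2 fold change -0.37, adjusted p = 0.084), although its other 3 probes gave -0.45 to 0.0040. The coactivator Ncoa2 had a log2 fold change of 0.19 (adjusted p = 0.216). Rxra, the obligate partner of PPARA and FXR, had -0.08 (adjusted p = 0.650), and Nr0b2, the repressor that FXR induces in liver, had -0.12 (adjusted p = 0.510).

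Other nuclear receptors gave 0 calls among 26 tested, of 33 listed, with a median log2 fold change of -0.10. An unadjusted p under 0.05 in limma's fit was found for 2 higher and 8 lower genes (7.69% and 30.8%, against 11.8% and 13.2% of all genes). Those counts were 3 and 5 without control replicate 3, 2 and 5 without treated replicate 2 and 0 and 5 without treated replicate 3. Nr2f6, an orphan receptor, had 4.15, 4.21 and 4.30 in treated cortex, against 4.59, 4.48 and 4.53 in control cortex (log2 fold change -0.31, adjusted p = 0.0595). The retinoic acid receptor Rarb had -0.46 (adjusted p = 0.056), against 0.14 on a further probe. Singled out after their values were seen, the most extreme differences in this list were those of Nr1d1, a repressor in the circadian clock, and Ppard, a fatty acid receptor related to PPARA. Nr1d1 had a log2 fold change of 1.51 with overlapping groups (adjusted p = 0.149), and 2.02 without control replicate 3. Ppard had -2.30, -1.72 and -1.36 in treated cortex, against -0.74, -0.57 and -1.13 in control cortex, without overlap (log2 fold change -0.98, adjusted p = 0.101), while -0.61 was found on both of its further probes.

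Transcription factors of other nephron segments gave 0 higher and 1 lower call among 29 tested, of 34 listed. Calls over all genes were 3.03% higher and 1.33% lower. The median of the list was -0.04, and it was 0.038 without treated replicate 3 and -0.11 with probe means. Elf5, an epithelial ETS factor of the collecting duct, had -3.22, -3.19 and -3.51 in treated cortex, against -2.28, -2.49 and -2.52 in control cortex. The groups did not overlap, and Elf5 fell by 0.88 on the log2 scale (SE 0.12, limma adjusted p = 0.028). Without control replicate 3 the difference was -0.92 and the adjusted p was 0.073, a fit in which no gene of the 12130 was called.

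Genes linked to HNF4A in the proximal tubule gave 2 higher and 1 lower call among 41 tested, of 42 listed, and 38 did not pass. Over all genes, 3.03% were called higher and 1.33% lower. The median log2 fold change was -0.09, and 30 of the 41 had a lower mean in treated cortex (73.2%, against 56.5% of all genes). At an unadjusted p under 0.05 the counts were 4 higher and 4 lower (9.76% each, against 11.8% and 13.2% of all genes). The called members were unlike in direction and kind. Ugt2b7, a glucuronosyltransferase that conjugates drugs and steroids, had 2.79, 4.43 and 5.77 in treated cortex, against -2.12, -1.37 and -1.96 in control cortex (limma adjusted p = 0.024). Slc17a1, a phosphate and urate transporter, had 2.26, 2.51 and 2.63 in treated cortex, against 1.86, 1.98 and 1.86 in control cortex (log2 fold change 0.56, SE 0.11, limma adjusted p = 0.0496). Anpep, a brush border aminopeptidase, had 3.60, 3.78 and 3.60 in treated cortex, against 4.26, 4.44 and 4.21 in control cortex (log2 fold change -0.65, SE 0.09, adjusted p = 0.030). Without control replicate 3 the list had 0 calls, with an unadjusted p under 0.05 for 4 higher and 5 lower genes.

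Target genes of PPARA had a median log2 fold change of -0.25, against -0.03 for all genes tested. Of 49 tested, of 50 listed, 41 had a lower mean in treated cortex (83.7%, against 56.5% of all genes). Of the 49, 1 was called higher and 0 were called lower, where 3.03% and 1.33% of all genes were. At an unadjusted p under 0.05 in limma's fit the counts were 4 higher and 19 lower (8.16% and 38.8%, against 11.8% and 13.2% of all genes). Without control replicate 3 they were 4 and 5, with a median of -0.24. That fit gave 1238 higher and 1235 lower of all 12130 genes, against 1429 and 1605 with all arrays. The list median was -0.17 without treated replicate 3. The list counts were 1 and 5 without control replicate 1 and 4 and 7 with quantile scaling. The groups did not overlap for 3 higher and 21 lower genes, against 14.1% and 18.7% of all genes. Fgf21, named here because of the filter, counts among the higher genes by both measures. It was well above background on 3 treated and 0 control arrays, and so entered the test through the treated arrays alone. The called gene was Lpl, lipoprotein lipase, which frees fatty acids from lipoproteins, with -0.06, -0.04 and -0.17 in treated cortex, against -0.59, -0.69 and -0.79 in control cortex (log2 fold change 0.60, SE 0.07, adjusted p = 0.026, and 0.62 on its other probe). Without control replicate 3 the Lpl difference was 0.55 (limma adjusted p = 0.073), in the fit in which no gene was called.

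The PPARA targets did not move evenly among the treated animals. The mean of the 49 genes relative to the control mean was -0.13, -0.19 and -0.59 in treated cortex, against -0.00, -0.12 and 0.12 in control cortex. Treated replicate 3 was by far the lowest array, control replicate 3 was the highest, and treated replicate 1 was close to control replicate 2. A pair of genes, singled out after their values were seen, showed this at a larger scale. Angptl4, a secreted inhibitor of lipoprotein lipase, had 4.15, 3.55 and 1.91 in treated cortex, against 4.59, 4.59 and 4.66 in control cortex (log2 fold change -1.41, adjusted p = 0.193). Pdk4, a kinase that turns off pyruvate oxidation, had -2.05, -2.61 and -4.17 in treated cortex, against -1.52, -1.60 and -1.56 in control cortex (log2 fold change -1.38, adjusted p = 0.182). In both the groups did not overlap, and treated replicate 3 lay furthest from the controls. Among the treated animals Ppara itself ran in the same order, with 0.64, 0.38 and 0.19, and its other probe did so too. Over all arrays the order of Ppara differed from that of the target mean. Ppara was highest in control replicate 1 and lowest in control replicate 2, which was also the lowest control for the target mean. A link between the level of Ppara and that of its targets was not tested. Fabp1, the liver-type fatty acid binding protein and also picked after its values were seen, had -2.77, -3.10 and -2.55 in treated cortex, against -3.09, -3.24 and 1.36 in control cortex. Only the array with the liver transcripts was high. Fabp1 is 1 of the 49 genes, so it enters their mean of 0.12 on control replicate 3, and the mean without it was not computed.

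**Figure D3:**
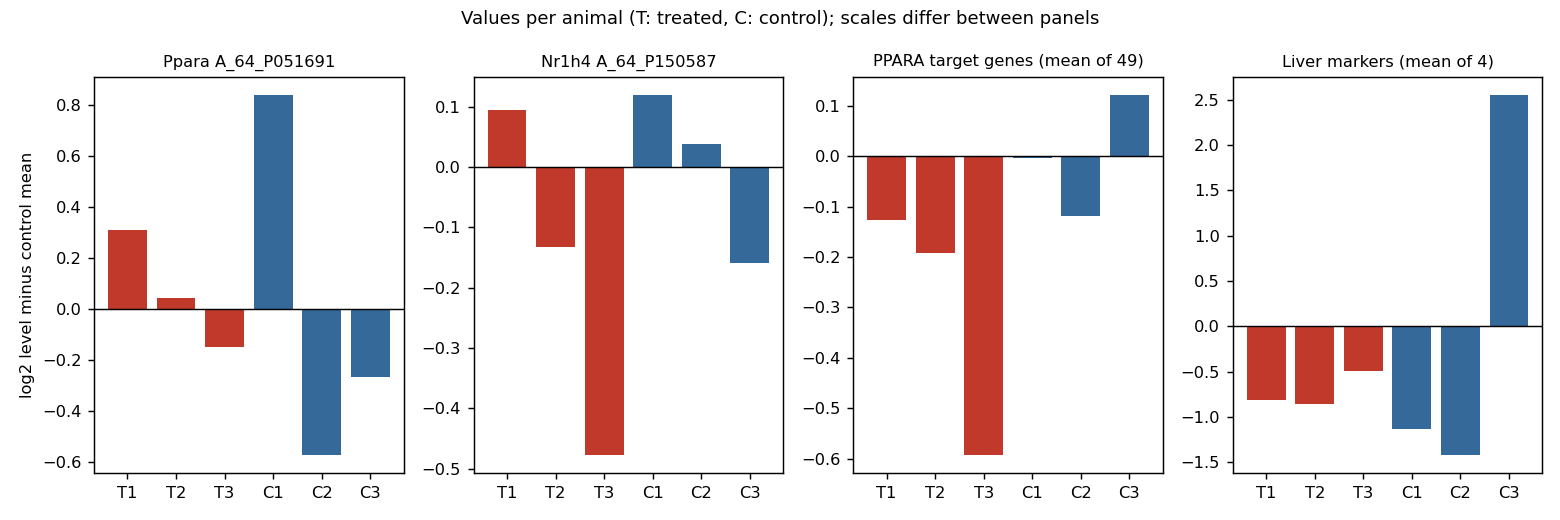
Log2 level minus the control mean (y axes, with scales that differ between panels) in each treated (T, red) and control (C, blue) animal for Ppara, Nr1h4, the mean of 49 PPARA target genes and the mean of 4 liver markers. Treated replicate 3 is lowest for Nr1h4 and the PPARA targets, and control replicate 3 reaches 2.55 for the liver markers, against -1.42 to -0.49 on the other arrays.

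Genes driven by PGC1A and ERRA, which serve the respiratory chain and mitochondrial growth, gave 0 calls among 50 tested, of 51 listed, Esrra among them. The median log2 fold change was -0.03, the same as over all genes. In limma's fit 3 higher and 6 lower genes had an unadjusted p under 0.05 (6% and 12%, against 11.8% and 13.2% of all genes). The list counts were 1 and 4 without control replicate 3, and 6 and 1 without control replicate 1. The 2 with the smallest p both encode factors that switch on nuclear genes for mitochondrial proteins. Nrf1 had -1.16, -1.42 and -1.49 in treated cortex, against -1.05, -1.04 and -1.06 in control cortex (log2 fold change -0.31, adjusted p = 0.130). Gabpa had 0.22, 0.24 and 0.23 in treated cortex, against 0.37, 0.41 and 0.39 in control cortex (log2 fold change -0.16, adjusted p = 0.119), with -0.18 and 0.21 on 2 further probes.

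Target genes of FXR gave 0 calls among 20 tested, of 26 listed, with a median of -0.14 (-0.09 without control replicate 3). In limma's fit 2 higher and 1 lower gene had an unadjusted p under 0.05 (10% and 5%, against 11.8% and 13.2% of all genes). Slc51a, a subunit of the basolateral bile acid and steroid exporter, had 3.24, 2.75 and 2.86 in treated cortex, against 2.31, 2.37 and 2.51 in control cortex (log2 fold change 0.55, adjusted p = 0.085). Abcc2, an apical efflux pump for conjugated anions, had 2.08, 3.60 and 2.97 in treated cortex, against 1.53, 1.91 and 1.68 in control cortex (log2 fold change 1.17, adjusted p = 0.137). Neither pair of groups overlapped.

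Genes linked to PAX8 gave 1 higher and 0 lower calls among 19 tested, of 23 listed, with a median of -0.04. Calls over all genes were 3.03% higher and 1.33% lower. An unadjusted p under 0.05 in limma's fit was found for 5 higher and 1 lower gene (26.3% and 5.26%, against 11.8% and 13.2% of all genes). The called gene was Slc5a5, the sodium iodide symporter that PAX8 drives in thyroid. It was dim, with -5.00, -4.50 and -4.67 in treated cortex, against -5.36, -5.51 and -5.53 in control cortex, and was well above background on 3 treated arrays and 1 control array. It thus passed the filter through the treated arrays alone, so its call rests on control signals mostly not well above background. The log2 fold change was 0.74 (SE 0.14, limma adjusted p = 0.046). Without control replicate 3 it was 0.71 (limma adjusted p = 0.123), in the fit in which no gene was called.

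**Figure D4:**
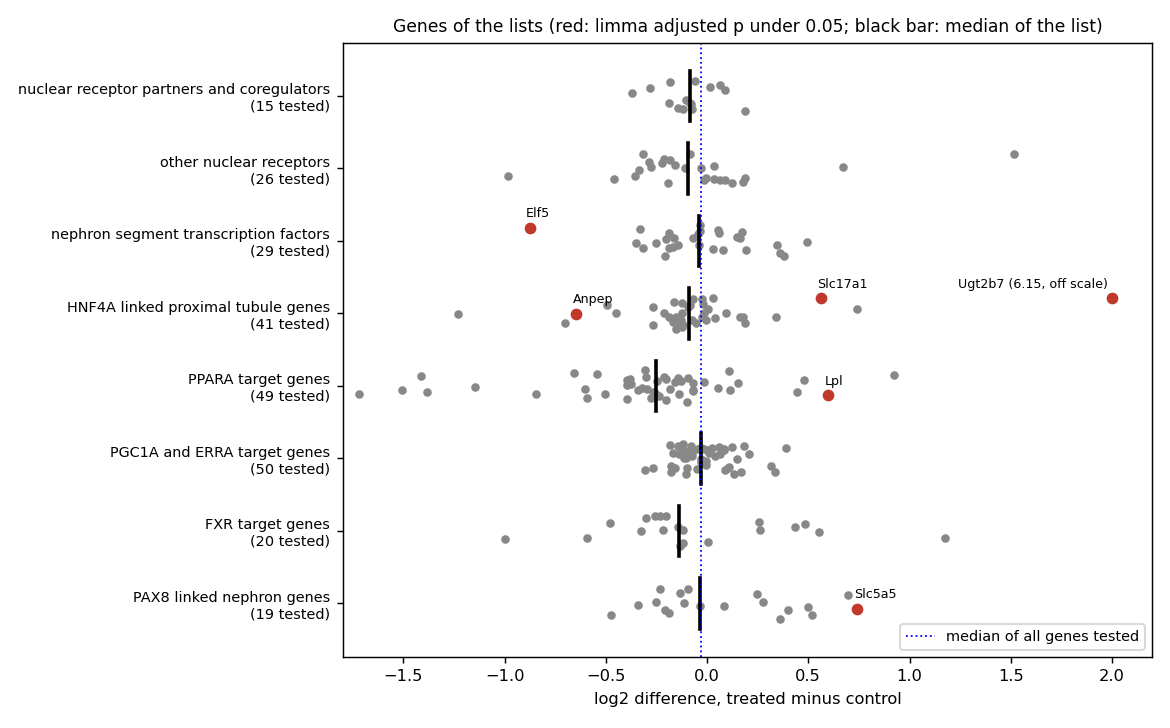
Log2 difference, treated minus control (x axis), of every tested gene in the 8 lists, with genes called by limma in red and named, a black bar at the median of each list and a dotted line at the median of all genes tested. The PPARA targets have the lowest median, -0.25, and 6 genes are called over all lists, with Ugt2b7 drawn at the edge because its value of 6.15 is off the scale.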

How the data were processed

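Total RNA of renal cortex was labelled with Cy3 and hybridised to 6 arrays, per the labels' protocols. Per the file headers, Agilent Feature Extraction 10.7.1.1 made the deposited spot intensity used here, a background-subtracted and detrended signal. The deposited value table is a linear ratio, each signal divided by the 75th percentile of its array, found by comparison with the signals, and was an alternative. From the deposited signals, log2 values minus that percentile were computed. Outlier spots were missing values. Accessions were matched to RefSeq genes of GRCr8, which named 28206 probes. The files' build is not GRCr8, so probe coordinates are not given.

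A probe was kept where all arrays of either group had it well above background, and a gene took its kept probe with the highest mean. limma 3.58.1 (lmFit and eBayes, R 4.3.3) compared 3 treated with 3 control arrays over 12130 genes and, separately, 40986 probes, with Benjamini-Hochberg adjustment and a threshold of 0.05. The number of arrays limits the precision. The fit was tested on simulated data with independent noise for each gene and no slide effect or outlying array. It found 73.2% of 2-fold and 89.6% of 4-fold changes there. The members and lists were chosen with earlier results of these data known. Named list genes are up to 4 called members of each list or, in lists without a call, the 2 of smallest p, plus direct partners, with exceptions said to be so. A few items are not reported here. The alternatives were normexp background, other scalings and filters, the deposited table, a replicate block, an intensity trend, probe means and leaving out each array.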

Additional observations from a re-analysis of the deposited data

How the results depend on the processing

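None of the 6 members was called under any of the 15 alternatives, whose smallest adjusted p was 0.145, and 80 of the 90 member values kept their sign. Ppara was -0.0084 with a normexp background (from median spot and background signals, since the files used here give no mean signal), and Ppargc1a was -0.019 and Esrra -0.025 with median scaling. When each array was left out in turn, Ppara ranged from -0.22 to 0.49, Ppargc1a from -0.031 to 0.056, Esrra from -0.016 to 0.034, Hnf4a from -0.49 to -0.19, Nr1h4 from -0.31 to -0.02 and Pax8 from 0.01 to 0.10. Averaging the probes of a gene moved Hnf4a to -0.084 and Nr1h4 to -0.017. The count of genes called, 529, was 948 with normexp (47.8% of calls higher, against 69.6%), 836 with an intensity trend, 292 with probe means, 44 with no filter, 0 with the replicate block and 0 to 54 without 1 array (54 without control replicate 2, 46 without treated replicate 1, 0 without any other). The 6 calls in the lists, 4 higher and 2 lower, became 16 with normexp (8 and 8), 10 with the trend (3 and 7), 5 with median scaling (2 and 3), 0 with no filter, 0 with the replicate block and 0 to 1 without 1 array. The replicate numbers showed no sign of pairing the animals: deviations of same-numbered animals correlated at -0.12, -0.11 and 0.09 across genes. Those of differently numbered animals correlated at -0.09 to 0.21. With so few arrays, these values cannot exclude a pairing. List medians moved for HNF4A-linked genes to -0.043 with normexp and -0.043 with quantile scaling, for PGC1A targets to 0.026 with normexp and 0.044 with quantile scaling, and for partners to -0.12 with median scaling and -0.11 to -0.047 without 1 array. For PAX8-linked genes they were 0.040 with normexp, 0.083 with no filter, -0.10 with probes well above background on all 6 arrays and -0.063 to 0.038 without 1 array. Without 1 array, other nuclear receptors ran from -0.16 to -0.065, FXR targets from -0.18 to -0.0079, HNF4A-linked genes from -0.11 to -0.055, PGC1A targets from -0.046 to 4.3e-05, PPARA targets from -0.31 to -0.17 and segment factors from -0.080 to 0.038. Segment factors were -0.11 with probe means. A block for slide was not run, because each slide held 1 group.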
